A study of Homo sapiens with 18 samples.

Results

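The 6 NF1 mutant H2052 libraries comprise 3 from cells given 1 µM VT107 for 24 h and 3 from cells given the solvent DMSO for 24 h, out of 18 RNA-seq samples described for the whole study. They were identified by their labels. VT107 replicate 1 stands apart from the other 5, so estimates of VT107 against DMSO are given without it and, where the gene was tested, with all 6 libraries. H2052 is a human mesothelioma cell line that carries mutations in the Hippo pathway genes NF2 and LATS2, and these are shared by all groups used here. NF1 was mutated with CRISPR-Cas9, by a lentivirus carrying Cas9 and a blasticidin resistance gene and a second carrying the sgRNA and a puromycin resistance gene, followed by antibiotic selection. The sources used here do not say which NF1 sgRNA these libraries carry, nor whether the sequenced cells were cloned. The parental H2052 cells that serve as the comparison received the same VT107 dose or DMSO for the same time, with 3 libraries each, and carry no NF1 mutation. The column names of the parental libraries carry another prefix than those of the NF1 mutant libraries, so an occasion of preparation or sequencing that differed between them cannot be told apart from the genotype. Replicates are described as biological. Values are raw counts of polyA RNA reads per gene, shown as CPM, the count divided by the library's total and scaled to a fixed sum, with gene positions on hg19.

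VT107 blocks the auto-palmitoylation of the TEAD transcription factors, a lipid modification that stabilises them and their binding to YAP and TAZ. In the Hippo pathway, NF2 and other scaffold proteins activate the LATS kinases, which keep YAP and TAZ out of the nucleus. Without that restraint YAP and TAZ enter the nucleus and drive genes through TEAD, among them CTGF, CYR61 and ANKRD1, which is why mesothelioma cells with NF2 or LATS mutations are used to study TEAD inhibitors. NF1 encodes neurofibromin, which switches RAS off, and its loss raises signalling through RAS and the kinases MEK and ERK. The comparison asks how the transcriptome of cells that lack this brake responds to TEAD inhibition.

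NF1 itself (ENSG00000196712, chr17:29421945-29708905) was at 6.72, 18.5 and 16.7 CPM in VT107 and 12.8, 17.0 and 18.3 CPM in DMSO in the NF1 mutant libraries. Parental cells had 63.9, 49.7 and 27.2 CPM in VT107 and 70.0, 64.6 and 34.4 CPM in DMSO, so each NF1 mutant library lay below each parental one. VT107 did not move NF1 mRNA past the threshold in the mutant cells (log2 fold change 0.14 ± 0.22 (SE), adjusted p = 0.837 by edgeR without VT107 replicate 1, and −0.15 with all 6 libraries). Another gene, EVI2A, lies within the NF1 span on the opposite strand.

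Library totals in NF1 mutant cells were 4315881, 4806065 and 3285363 counts in VT107 and 5489092, 4529175 and 3988479 in DMSO, so that 3 counts correspond to 0.547 to 0.913 CPM. Across 11605 genes, the log2 CPM of VT107 replicate 1 correlated with each of the other 5 libraries at r = 0.813 to 0.838, while those 5 correlated with one another at 0.970 to 0.986. Of 6397 genes at 15 CPM or more in the other 5 libraries, 970 were over 4-fold lower in VT107 replicate 1 than in their mean and 5 over 4-fold higher, against 0 in either direction for each of the others. Abundant genes were affected: RPS7, a ribosomal protein gene, had 1.16 CPM in VT107 replicate 1 and 256 to 455 CPM in the others, and PFN1, which encodes the actin-binding profilin, had 14.6 CPM against 687 to 1345 CPM. The deviation followed base composition. With genes ranked by GC content over the last 400 transcript bases and cut into 10 groups, the group of lowest GC (median 28.75%) had a median deviation of −1.31 on the log2 scale in this library, and that of highest GC (61.0%) one of 0.928. Over 6115 genes the deviation of this library correlated with GC at r = 0.428 and rho = 0.483, and for the other 5 r ran between −0.185 and 0.239. Genes share 1 library here and are not independent replicates. The part of base composition in the results was not tested.

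**Figure D1:**
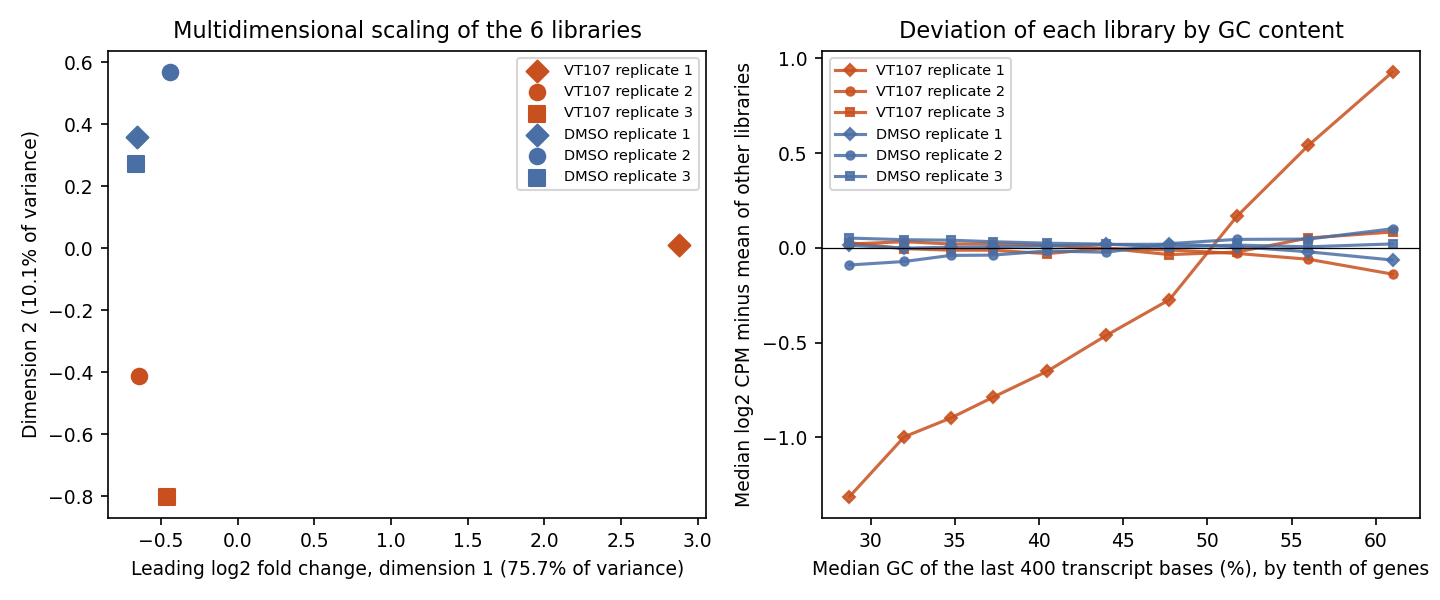
Left, multidimensional scaling of the 6 NF1 mutant libraries, with the leading log2 fold change of each axis; right, median deviation of each library (log2 CPM minus the mean of the other libraries) for 10 groups of genes ordered by GC content (%). VT107 replicate 1 (orange diamond) lies at 2.88 on the first axis while the other 5 lie between −0.67 and −0.44, and its deviation climbs with GC from −1.31 to 0.928 as no other library's does.

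Of the mesothelial markers, KRT18, KRT19, PDPN and MSLN were present and KRT5 and MUC16 had 0 counts in all 6 libraries. WT1, a transcription factor of the mesothelium, was at 15.1, 31.8 and 28.3 CPM in VT107 and 46.5, 49.0 and 38.4 CPM in DMSO. Calretinin (CALB2), another defining marker, was at or below 1.04 CPM throughout. The 19 mesothelial markers summed to 4260 to 6544 CPM in VT107 and 4436 to 5345 CPM in DMSO. Of the other cell types, PTPRC, CD3E (leukocyte), VWF, CDH5 (endothelial), EPCAM and CDH1 (epithelial carcinoma) had 0 counts in all 6 libraries. Other members were present. The endothelial marker TIE1 was at 45.4, 69.3 and 71.2 CPM in VT107 and 34.8, 49.7 and 53.65 CPM in DMSO. The endothelial list, mostly TIE1, summed to 52.1 to 78.8 CPM in VT107 and 38.1 to 61.7 CPM in DMSO. The epithelial marker CLDN7, which shares its span with C17orf81, was at 1.87 to 3.46 CPM, and the fibroblast marker THY1 at 250 to 364 CPM. The 15 leukocyte markers summed to 30.7 to 47.3 CPM in VT107 and 23.7 to 29.6 CPM in DMSO, and CD68, which shares its span with AC113189.5, and CORO1A made up most of that sum.

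With all 6 libraries edgeR called 0 of 11605 genes at an adjusted p under 0.05 (0.0%). At an unadjusted p under 0.05 there were 612 (5.27%), DESeq2 called 20 (0.172%), and limma's voomWithQualityWeights, which gave VT107 replicate 1 a weight of 0.0596 against 1.02 to 2.62 for the others, called 147 (1.27%). Without VT107 replicate 1, edgeR called 198 of 12443 genes (1.59%), of which 109 rose (0.876%) and 89 fell (0.715%). At an unadjusted p under 0.05 there were 1791 (14.4%). Of the 147 genes called with quality weights, 129 are among the 198, that is 87.8% of the 147 and 65.2% of the 198, and all 20 DESeq2 genes are among them. These fits share every library but VT107 replicate 1, so much of this overlap is built in. For all 198 genes VT107 replicates 2 and 3 lay on 1 side of all DMSO libraries, as they did for 31.1% of all genes tested (16.6% above and 14.5% below). With all 6 libraries the groups did not overlap for 15.8% of 11605 genes (6.66% with VT107 above and 9.18% with it below). The median SE of a log2 fold change was 0.367 with VT107 replicate 1 and 0.201 without it.

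The 109 genes that rose all had positive estimates in the 6-library comparison where tested there (106 of 106), and 68 of these had an unadjusted p under 0.05. Of the 89 that fell, 78 of the 88 tested there had negative estimates, 53 with an unadjusted p under 0.05. The 10 with a positive one were BCAM, JDP2, MCM7, MRTO4, PDLIM2, PRMT1, SH3BP5L, STIP1, U2AF2 and WNT5B. All libraries but VT107 replicate 1 enter both comparisons, so their agreement is largely built in. VT107 replicate 1, which took no part in choosing the 198, was below all 3 DMSO libraries for 69 and above all 3 for 14 of the 89 that fell, and above all 3 for 55 and below all 3 for 41 of the 109 that rose. Over all 12443 genes it lay below all 3 DMSO libraries in 57.0% and above all 3 in 32.1%. Median GC of the last 400 transcript bases was 41.75% for the genes that rose, 42.25% for those that fell and 40.75% for all genes tested.

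**Figure D2:**
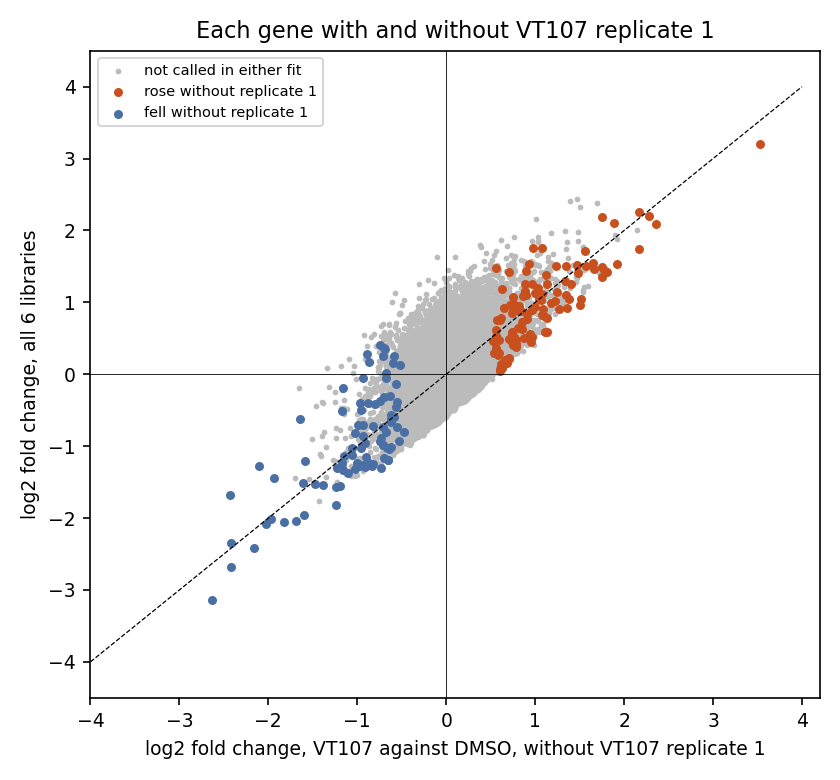
Log2 fold change of each gene, VT107 against DMSO, without VT107 replicate 1 (horizontal) and with all 6 libraries (vertical), with the dashed line at equality. Orange points are genes that rose and blue points genes that fell without VT107 replicate 1; all 106 orange points lie above 0 on the vertical axis, and 10 blue points do.

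Several genes known as outputs of YAP, TAZ and TEAD fell in NF1 mutant cells without VT107 replicate 1. Among them NPPB, which encodes B-type natriuretic peptide, fell most, followed by IGFBP3, SNAPC1 and ANKRD1, and the pair CTGF and CYR61 fell too. Of 21 tested genes of the YAP/TAZ-TEAD target list, 6 fell and 0 rose, beside 0.715% and 0.876% of all genes, and 18 had negative estimates, beside 48.8% of all genes. The list's median log2 fold change was −0.27 without VT107 replicate 1 and −0.41 with it, beside 0.01 and 0.02 over all genes. In a second list of other genes named with this pathway, 4 of 9 tested fell (KRT34, NPPB, SNAPC1 and THBS1) and the median was −0.47 without VT107 replicate 1 and −0.49 with it. Both lists were chosen with earlier results of these data known, so their counts carry that choice.

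NPPB (ENSG00000120937, chr1:11917521-11918988) had 0.463, 8.74 and 5.48 CPM in VT107 and 119, 96.5 and 81.5 CPM in DMSO. Its log2 fold change was −3.77 ± 0.24 (adjusted p = 5.25e-07 by edgeR without VT107 replicate 1). With 2 counts in VT107 replicate 1, NPPB fell under the minimum of 0.5 CPM and was not tested with all 6 libraries. All 3 VT107 libraries lay far below the lowest DMSO library.

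SNAPC1, a subunit of the complex that starts small nuclear RNA transcription (ENSG00000023608, chr14:62229075-62263146), had 18.5, 43.5 and 48.4 CPM in VT107 and 229.7, 259 and 239 CPM in DMSO. The log2 fold change was −2.42 ± 0.14 (adjusted p = 3.83e-07) without VT107 replicate 1 and −2.68 (adjusted p = 0.283) with it. The groups did not overlap with or without that library.

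IGFBP3, which binds insulin-like growth factors outside the cell (ENSG00000146674, chr7:45951850-45961473), had 1.62, 20.8 and 14.6 CPM in VT107 and 121, 99.8 and 110.1 CPM in DMSO. ANKRD1, a nuclear ankyrin-repeat protein (ENSG00000148677, chr10:92671853-92681033), had 6.02, 17.1 and 10.0 CPM in VT107 and 73.8, 55.9 and 54.7 CPM in DMSO. Without VT107 replicate 1 their log2 fold changes were −2.63 ± 0.18 (adjusted p = 1.04e-06) and −2.16 ± 0.22 (adjusted p = 0.000102), and with all 6 libraries −3.15 (adjusted p = 0.774) and −2.42 (adjusted p = 0.322). Each VT107 library was lower than each DMSO library for both genes, and VT107 replicate 1 was the lowest of all.

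CTGF (ENSG00000118523, chr6:132269316-132272513) and CYR61 (ENSG00000142871, chr1:86046444-86049645) encode secreted matricellular proteins. CTGF had 3.24, 10.8 and 13.7 CPM in VT107 and 36.3, 36.0 and 44.1 CPM in DMSO (log2 fold change −1.69 ± 0.20, adjusted p = 0.000255). CYR61 had 1.62, 167 and 229 CPM in VT107 and 465, 326 and 599 CPM in DMSO (log2 fold change −1.24 ± 0.20, adjusted p = 0.00531). With all 6 libraries the estimates were −2.04 and −1.82, with an adjusted p of 0.774 for each. For CYR61 VT107 replicate 1 lay far below the other VT107 libraries, which still lay under every DMSO library.

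**Figure D3:**
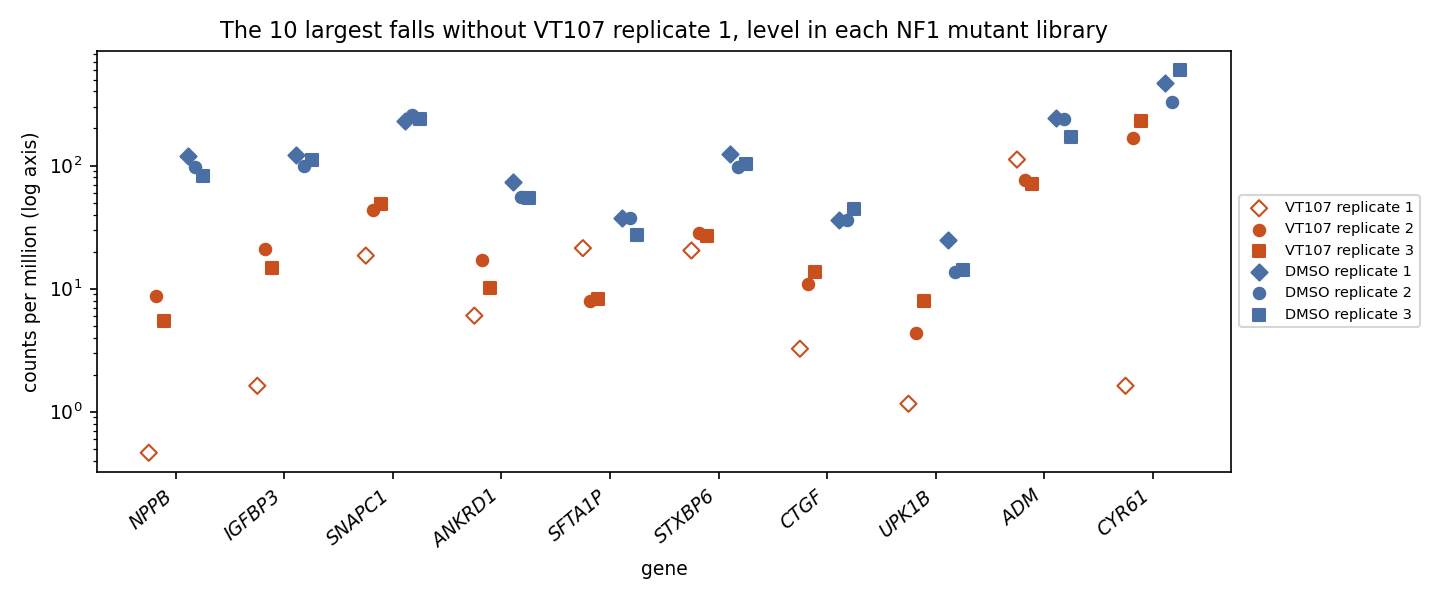
Level of the 10 genes with the largest falls without VT107 replicate 1 and a mean of at least 8 CPM (log2 CPM of 3), in CPM on a log axis, 1 point per NF1 mutant library (orange VT107, blue DMSO, open diamond VT107 replicate 1). For each gene every VT107 point lies below every DMSO point; NPPB is at 0.463 to 8.74 CPM in VT107 and 81.5 to 119 CPM in DMSO.

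Smaller falls were found in other members of the 2 lists. AMOTL2, an angiomotin that holds YAP at cell junctions, had 14.4, 43.1 and 48.1 CPM in VT107 and 88.4, 75.1 and 94.5 CPM in DMSO (log2 fold change −0.93 ± 0.15, adjusted p = 0.00424, and −1.26 with all 6 libraries). THBS1, the secreted glycoprotein thrombospondin, had 14.4, 30.8 and 34.7 CPM in VT107 and 62.1, 61.6 and 71.2 CPM in DMSO (−1.01 ± 0.15, adjusted p = 0.00304, and −1.24 with all 6 libraries). TGFB2, a TGF-beta ligand, had 14.1, 19.4 and 19.2 CPM in VT107 and 34.6, 40.9 and 32.3 CPM in DMSO (−0.92 ± 0.18, adjusted p = 0.0214, and −0.96 with all 6 libraries). None of these 3 overlapped between the groups, which also held for 15.8% of all genes tested with 6 libraries. KRT34, a hair-type keratin, had 248, 365 and 345 CPM in VT107 and 760.2, 869 and 741 CPM in DMSO (−1.17 ± 0.13, adjusted p = 0.000125, and −1.24 with all 6 libraries).

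Other members of the same lists did not pass the threshold. The coagulation starter F3 had 6.72, 19.8 and 27.4 CPM in VT107 and 45.7, 29.8 and 54.7 CPM in DMSO (log2 fold change −0.91 ± 0.23, adjusted p = 0.0677, and −1.24 with all 6 libraries). The receptor kinase AXL had 693.5, 247 and 331.5 CPM in VT107 and 312, 316 and 310.4 CPM in DMSO, with an estimate of −0.13 without VT107 replicate 1 and 0.61 with it, so its sign turned on that library. MYOF, a membrane repair protein, was at −0.04 (−0.33 with all 6 libraries). The ectonucleotidase NT5E was at 0.45 (adjusted p = 0.205, and 0.15 with all 6 libraries). EDN1, which encodes endothelin, was too low to be tested, with 0, 12 and 0 counts in VT107 and 40, 19 and 24 in DMSO. The caveolae protein CAV1 was at −0.05 (−0.23 with all 6 libraries), so without VT107 replicate 1 the 2 lists held both genes that fell by several fold and genes whose estimates lay near 0.

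The promoters of 5 of the genes that fell are shown because they hold the core of the sequence that TEAD factors bind, GGAATG, read on either strand (CATTCC). Each is the 250 bases before the start site from RefSeq (GRCh38.p14), on the gene's own strand, with matches in capitals.
CTGF promoter, chr6:131951373-131951622, minus strand: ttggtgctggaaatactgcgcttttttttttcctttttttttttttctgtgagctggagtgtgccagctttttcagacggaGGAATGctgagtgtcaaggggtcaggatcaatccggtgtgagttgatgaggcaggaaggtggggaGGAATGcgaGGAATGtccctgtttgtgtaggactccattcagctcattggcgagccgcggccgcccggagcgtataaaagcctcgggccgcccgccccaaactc
ANKRD1 promoter, chr10:90921088-90921337, minus strand: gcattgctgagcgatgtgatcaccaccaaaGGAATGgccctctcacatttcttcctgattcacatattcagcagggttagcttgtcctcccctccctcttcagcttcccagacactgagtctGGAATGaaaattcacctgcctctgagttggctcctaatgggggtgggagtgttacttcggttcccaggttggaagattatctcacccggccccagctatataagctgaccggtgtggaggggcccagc
WTIP promoter, chr19:34481508-34481757, plus strand: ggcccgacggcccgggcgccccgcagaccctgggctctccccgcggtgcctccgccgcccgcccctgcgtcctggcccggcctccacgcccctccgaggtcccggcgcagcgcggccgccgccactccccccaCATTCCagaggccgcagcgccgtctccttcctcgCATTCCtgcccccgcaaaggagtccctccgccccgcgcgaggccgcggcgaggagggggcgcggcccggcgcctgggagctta
TGFB2 promoter, chr1:218345086-218345335, plus strand: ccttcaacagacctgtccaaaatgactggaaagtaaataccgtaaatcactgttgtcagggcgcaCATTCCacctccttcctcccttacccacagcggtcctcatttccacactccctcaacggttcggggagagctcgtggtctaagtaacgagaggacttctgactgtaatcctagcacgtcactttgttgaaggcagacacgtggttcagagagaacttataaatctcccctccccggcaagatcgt
THBS1 promoter, chr15:39580829-39581078, plus strand: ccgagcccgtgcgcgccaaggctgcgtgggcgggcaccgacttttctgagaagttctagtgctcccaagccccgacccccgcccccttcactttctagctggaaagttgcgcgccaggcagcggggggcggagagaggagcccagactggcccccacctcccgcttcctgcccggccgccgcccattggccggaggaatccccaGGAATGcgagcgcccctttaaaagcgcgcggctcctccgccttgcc
CTGF holds 3 matches, starting at −169, −104 and −95 from the start site, ANKRD1 holds 2 (−220 and −128) and WTIP 2 (−117 and −83), while TGFB2 and THBS1 hold 1 each (−185 and −46). In windows of 300 bases that also take in 50 bases after the start, GGAATG on either strand was found in 13 of the 65 genes that fell and had an entry (20%), in 14 of 79 that rose (17.7%) and in 1005 of all 9532 genes tested with an entry (10.5%). The longer GGAATGT, which contains GGAATG, was in 6 of those that fell (9.23%), 5 that rose (6.33%) and 199 of all (2.09%). The AP-1 motif TGANTCA was in 4.62%, 2.53% and 4.28% in the same order. Entries were not found for CYR61, NPPB and ITGB2. A match describes letters in a window and is not evidence of binding.

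Among the TEAD genes, TEAD1 fell. It had 51.4, 64.3 and 69.1 CPM in VT107 and 91.6, 107 and 97.0 CPM in DMSO (log2 fold change −0.58 ± 0.14, adjusted p = 0.045, and −0.60 with all 6 libraries). TEAD4 had 94.8, 44.7 and 45.4 CPM in VT107 and 56.3, 64.5 and 69.5 CPM in DMSO (−0.51, adjusted p = 0.113, and 0.12 with all 6 libraries). TEAD2 had 103, 50.1 and 96.5 CPM in VT107 and 38.8, 42.2 and 45.4 CPM in DMSO (0.77, adjusted p = 0.0924, and 1.10 with all 6 libraries). The estimates of TEAD4, YAP1 and VGLL4 changed sign with VT107 replicate 1. The TEAD genes had estimates of both signs, and the 3 VT107 libraries lay above all DMSO libraries for TEAD2 and below them for TEAD1. The co-activators YAP1 (0.22, adjusted p = 0.567, and −0.14 with all 6 libraries) and WWTR1, which encodes TAZ (0.57, adjusted p = 0.215, and 0.29 with all 6 libraries), did not pass, nor did the co-repressor VGLL4 (0.26, adjusted p = 0.494, and −0.03 with all 6 libraries), which shares its span with ATG7. VGLL1 had 0 counts in every library.

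Of 28 tested Hippo kinases and scaffolds 3 fell and 0 rose (median −0.11), beside 0.715% and 0.876% of all genes. Beside AMOTL2 these were WWC1, a scaffold of the LATS kinases, and WTIP, a LIM protein that restrains them. WWC1 had 54.2, 34.5 and 36.8 CPM in VT107 and 55.4, 65.8 and 56.2 CPM in DMSO (log2 fold change −0.75, adjusted p = 0.0255, and −0.37 with all 6 libraries). WTIP had 0.695, 32.9 and 23.4 CPM in VT107 and 45.4, 48.4 and 46.6 CPM in DMSO (−0.73, adjusted p = 0.0483, and −1.30 with all 6 libraries). For WWC1 VT107 replicate 1 lay just below the lowest DMSO library, and for WTIP far below it. NF2 (−0.90, adjusted p = 0.226) and LATS1 (0.72, adjusted p = 0.153) did not pass and were not tested with all 6 libraries. The list's median with all 6 was −0.09.

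Large falls were also found outside these lists. STXBP6, which binds SNARE proteins of vesicle fusion (ENSG00000168952, chr14:25278862-25519503), had 20.4, 28.5 and 26.8 CPM in VT107 and 123, 97.4 and 102 CPM in DMSO. Its log2 fold change was −1.97 ± 0.16 (adjusted p = 6.72e-06) without VT107 replicate 1 and −2.01 (adjusted p = 0.283) with it. In STXBP6, unlike CYR61, VT107 replicate 1 lay near the other VT107 libraries. The vasodilator peptide gene ADM had 111.9, 76.0 and 70.9 CPM in VT107 and 242, 238 and 172 CPM in DMSO (−1.58, adjusted p = 0.000102, and −1.20 with all 6 libraries). The noncoding SFTA1P had 21.3, 7.91 and 8.22 CPM in VT107 and 37.2, 37.8 and 27.3 CPM in DMSO (−2.10 ± 0.23, and −1.28 with all 6 libraries). The tetraspanin UPK1B had 1.16, 4.37 and 7.91 CPM in VT107 and 24.8, 13.7 and 14.0 CPM in DMSO (−1.60, adjusted p = 0.0276, and −1.96 with all 6 libraries). For ADM and SFTA1P VT107 replicate 1 was the highest VT107 library and still below all DMSO libraries. The aggrecan-cleaving protease ADAMTS5 fell by 2.42 on the log2 scale (adjusted p = 0.0113, and −2.34 with all 6 libraries), with at most 8.02 CPM in any library.

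The 109 genes that rose had log2 fold changes of 0.52 to 3.53 (median 0.95), and the 89 that fell had a median of −0.90. IL33, a cytokine of the IL-1 family (ENSG00000137033, chr9:6215805-6257983), rose most, with 8.81, 28.5 and 25.3 CPM in VT107 and 1.82, 3.09 and 2.01 CPM in DMSO. Its log2 fold change was 3.53 ± 0.27 (adjusted p = 5.67e-06) without VT107 replicate 1 and 3.20 (adjusted p = 0.303) with it. IL13RA2, the decoy receptor of IL-13, had 12.3, 17.3 and 20.1 CPM in VT107 and 4.19, 3.53 and 3.51 CPM in DMSO (2.28 ± 0.26, adjusted p = 0.000197, and 2.197 with all 6 libraries). In both genes every VT107 library lay at more than 2 times the highest DMSO library.

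Genes of the collagen and integrin lists were among those that rose. ITGA2, the alpha subunit of a collagen-binding integrin (ENSG00000164171, chr5:52285156-52390609), had 47.3, 39.7 and 58.8 CPM in VT107 and 9.84, 8.39 and 14.3 CPM in DMSO (log2 fold change 2.17 ± 0.23, adjusted p = 0.000102, and 2.26 with all 6 libraries). COL6A3, a chain of the microfibrillar collagen VI (ENSG00000163359, chr2:238232646-238323018), had 11.8, 84.3 and 79.8 CPM in VT107 and 27.9, 26.5 and 31.1 CPM in DMSO (1.51 ± 0.14, adjusted p = 5.27e-05, and 1.05 with all 6 libraries). COL6A1, another chain of it, had 387, 319 and 398 CPM in VT107 and 204, 240.4 and 248 CPM in DMSO (0.62, adjusted p = 0.0303, and 0.78 with all 6 libraries). VT107 replicate 1 was thus above all DMSO libraries for ITGA2 and COL6A1 and below them all for COL6A3. Of 18 tested collagens 4 rose and 0 fell, the others being COL1A2 (1.11, adjusted p = 0.0227, and 0.59 with all 6 libraries) and COL1A1 (0.53, adjusted p = 0.0278, and 0.30 with all 6 libraries), and 11 had positive estimates, beside 51.2% of all genes, with a median of 0.27 (0.14 with all 6 libraries). Of 12 tested integrin subunits 1 rose, ITGA2, and 1 fell, and over all genes 0.876% rose and 0.715% fell. The one that fell, ITGB2, the leukocyte integrin beta chain, had 29.7, 93.4 and 96.8 CPM in VT107 and 228, 218 and 219 CPM in DMSO (−1.24 ± 0.12, adjusted p = 8.55e-05, and −1.57 with all 6 libraries).

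**Figure D4:**
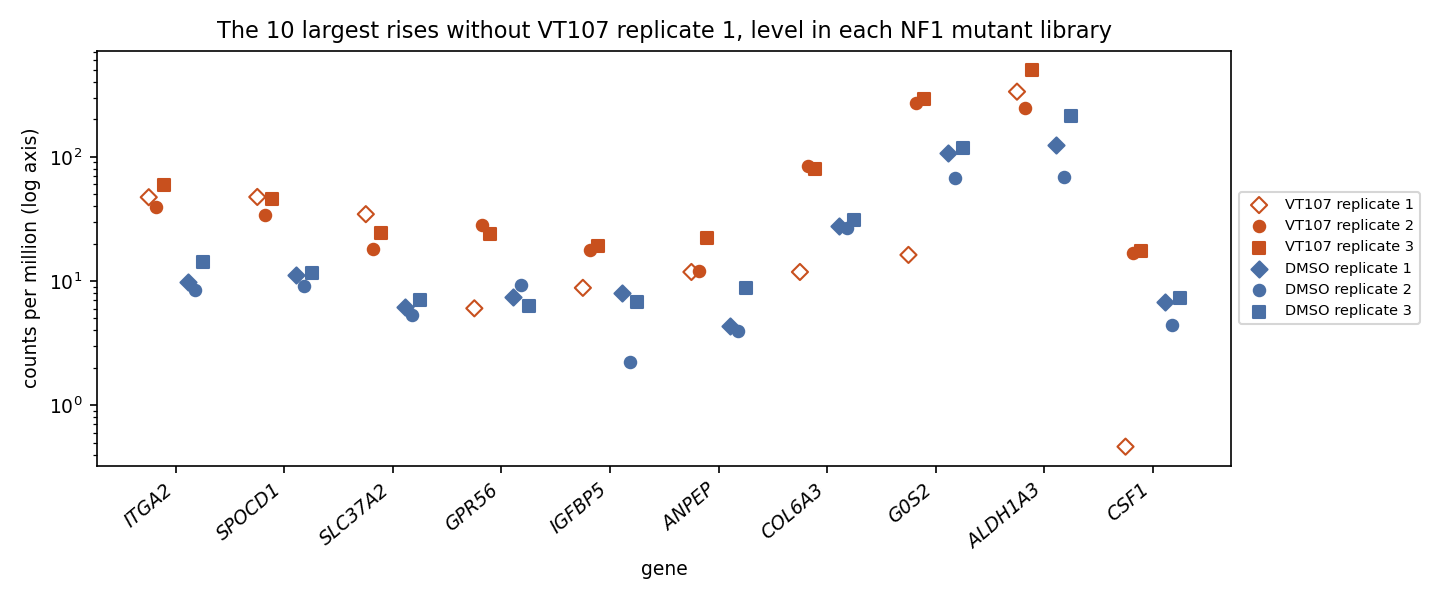
Level of the 10 genes with the largest rises without VT107 replicate 1 and a mean of at least 8 CPM (log2 CPM of 3), in CPM on a log axis, 1 point per NF1 mutant library (orange VT107, blue DMSO, open diamond VT107 replicate 1). The genes were chosen with VT107 replicates 2 and 3 above every DMSO library, while VT107 replicate 1 lies below all DMSO points for GPR56, COL6A3, G0S2 and CSF1.

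HIF1A, the oxygen-regulated transcription factor subunit (ENSG00000100644, chr14:62162231-62214976), had 95.7, 90.3 and 86.8 CPM in VT107 and 35.7, 35.6 and 31.8 CPM in DMSO. Its log2 fold change was 1.35 ± 0.14 (adjusted p = 0.000102) without VT107 replicate 1 and 1.51 (adjusted p = 0.402) with it. The 3 VT107 libraries, replicate 1 included, were close to one another for HIF1A. Of the 26 tested hypoxia and glycolysis genes, 1 rose (NDRG1, 0.79, adjusted p = 0.00424, and 0.47 with all 6 libraries) and 1 fell (ADM), beside 0.876% and 0.715% of all genes. The list's median was 0.13 without VT107 replicate 1 and 0.44 with it. The CPM of the list summed to 28864 in VT107 replicate 1, 13861 and 14042 in the other VT107 libraries and 12397 to 14162 in DMSO.

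Other genes with large rises have varied roles. The 10 largest rises among genes with a mean log2 CPM of at least 3 included SPOCD1, SLC37A2 and GPR56. SPOCD1 had 47.5, 33.9 and 45.7 CPM in VT107 and 11.1, 9.05 and 11.5 CPM in DMSO (log2 fold change 1.88, adjusted p = 0.000105, and 2.11 with all 6 libraries). SLC37A2, a sugar phosphate transporter, had 34.5, 18.1 and 24.4 CPM in VT107 and 6.19, 5.30 and 7.02 CPM in DMSO (1.75, adjusted p = 0.00157, and 2.19 with all 6 libraries). GPR56, an adhesion G protein-coupled receptor, had 6.02, 28.1 and 24.1 CPM in VT107 and 7.47, 9.27 and 6.27 CPM in DMSO (1.75, adjusted p = 0.000816, and 1.35 with all 6 libraries). In GPR56 the VT107 libraries split, with replicate 1 below the DMSO libraries. The lipase inhibitor G0S2 had 16.2, 269 and 292 CPM in VT107 and 108, 67.1 and 118 CPM in DMSO (1.51, adjusted p = 0.000221, and 0.97 with all 6 libraries). ALDH1A3, which makes retinoic acid, had 335, 248 and 504 CPM in VT107 and 124, 68.5 and 212 CPM in DMSO (1.47, adjusted p = 0.0331, and 1.52 with all 6 libraries). CSF1, the macrophage growth factor, had 0.463, 16.7 and 17.4 CPM in VT107 and 6.74, 4.42 and 7.27 CPM in DMSO (1.45, adjusted p = 0.0088) and was not tested with all 6 libraries. G0S2 and CSF1 show the same split as GPR56, and ALDH1A3 does not.

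Since NF1 restrains RAS, the genes of that pathway are of interest. Of 18 tested RAS genes and negative regulators of RAS, 0 passed the threshold in either direction by edgeR, and 0 did so at an unadjusted p under 0.05. Among 13 tested genes that report or dampen ERK activity, DUSP6 and PHLDA1 rose and DUSP5 fell (median 0.16), beside 0.876% and 0.715% of all genes. DUSP6, the cytoplasmic ERK phosphatase, had 2.55, 61.6 and 73.1 CPM in VT107 and 26.6, 25.6 and 38.9 CPM in DMSO (log2 fold change 1.14, adjusted p = 0.00424, and 0.58 with all 6 libraries). PHLDA1 had 112, 237 and 251 CPM in VT107 and 133, 115 and 153 CPM in DMSO (0.85, adjusted p = 0.00322, and 0.63 with all 6 libraries). DUSP5, the nuclear ERK phosphatase, had 50.7, 67.4 and 60.6 CPM in VT107 and 95.1, 97.8 and 99.3 CPM in DMSO (−0.62, adjusted p = 0.0276, and −0.63 with all 6 libraries). For DUSP6 and PHLDA1, VT107 replicate 1 lay below all DMSO libraries, on the other side from VT107 replicates 2 and 3. Of 9 tested AP-1 genes, 8 had negative estimates and 1, MAFK, fell (−0.94, adjusted p = 0.0331), beside 48.8% and 0.715% of all genes. MAFK had 66.5, 26.6 and 18.9 CPM in VT107 and 39.7, 53.2 and 38.1 CPM in DMSO, and its estimate was −0.05 with all 6 libraries. JUN was at −0.40 (adjusted p = 0.175, and −0.58 with all 6 libraries) and JUND at 0.58 (adjusted p = 0.107, and 0.97 with all 6 libraries).

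In the lists of ribosome biogenesis, DNA replication and mitosis genes few members passed, beside 0.715% of all genes that fell, and most estimates were negative. All 39 tested ribosome biogenesis genes had negative estimates without VT107 replicate 1, beside 48.8% of all genes, with a median of −0.35. Of these, 2 fell, and 18 had an unadjusted p under 0.05, beside 6.98% of all genes with a negative estimate and such a p. With all 6 libraries 31 of 39 were negative (median −0.38), beside 48.3% of all genes. NOP2, a ribosomal RNA methyltransferase, had 49.1, 76.4 and 58.4 CPM in VT107 and 104, 103 and 101 CPM in DMSO (−0.62, adjusted p = 0.0431, and −0.67 with all 6 libraries). MRTO4, a ribosome assembly factor that overlaps KIAA0090, had 171.5, 69.9 and 79.4 CPM in VT107 and 108, 119 and 126 CPM in DMSO (−0.68, adjusted p = 0.0214), and its estimate with all 6 libraries was 0.02. The 2 genes differ in that VT107 replicate 1 was below all DMSO libraries for NOP2 and above all for MRTO4. Of 38 DNA replication genes 33 were negative (median −0.23, and −0.25 with all 6 libraries) and 1 fell, the helicase subunit MCM7, which overlaps AP4M1 (−0.60, adjusted p = 0.0449; 0.15 with all 6 libraries). Of 30 mitosis genes 28 were negative (median −0.28, and −0.50 with all 6 libraries) and 1 fell. This was CDC20, the activator of the anaphase-promoting complex, with 538, 299.8 and 205 CPM in VT107 and 401, 431 and 370.3 CPM in DMSO (−0.68, adjusted p = 0.0386; −0.05 with all 6 libraries). Genes within such a list share libraries and are often co-expressed, so these counts are descriptions.

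The calls in signalling and metabolic lists stand beside 0.876% of all genes that rose and 0.715% that fell. ID1 and ID2, inhibitors of basic helix-loop-helix factors and targets of BMP signalling, rose. ID1 had 66.5, 232 and 239 CPM in VT107 and 97.8, 81.0 and 112 CPM in DMSO (log2 fold change 1.27, adjusted p = 0.000105, and 0.91 with all 6 libraries), and ID2 rose by 1.13 (adjusted p = 0.00574, and 0.78 with all 6 libraries). With TGFB2, which fell, these made 2 rises and 1 fall of 19 TGF-beta and BMP genes. In the amino acid stress list of 22 genes, the stress cytokine GDF15 (0.90, adjusted p = 0.00223, and 1.10 with all 6 libraries) and the mTORC1 inhibitor DDIT4 (1.92, adjusted p = 0.0212, and 1.54 with all 6 libraries) rose, and SLC3A2 (−0.67, adjusted p = 0.0214, and −1.02 with all 6 libraries) and SLC7A5 (−1.02, adjusted p = 0.023, and −0.82 with all 6 libraries), which together form an amino acid transporter, fell. The desaturase SCD rose (0.75, adjusted p = 0.00827, and 0.41 with all 6 libraries), alone among 28 lipid synthesis genes. In the WNT list of 17 genes the antagonist DKK1 rose (0.69, adjusted p = 0.0195, and 0.21 with all 6 libraries) and the ligand WNT5B fell (−0.58, adjusted p = 0.0303; 0.25 with all 6 libraries). VIM, the mesenchymal intermediate filament gene, rose (0.61, adjusted p = 0.0138, and 0.14 with all 6 libraries), the only call among 11 epithelial to mesenchymal transition genes, with 263 CPM in VT107 replicate 1 and 1228 to 2119 CPM in the other 5 libraries.

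Several lists held 0 called genes by edgeR without VT107 replicate 1. These were p53 targets (19 tested, median −0.03, 4 at an unadjusted p under 0.05), interferon-stimulated genes (23, 0.13, 5), JAK-STAT3 genes (12, 0.14, 1), receptor tyrosine kinases (16, −0.03, 2), the BCL2 family (13, −0.13, 1), cytosolic ribosomal proteins (40, −0.04, 1), nuclear respiratory chain subunits (39, −0.01, 1) and housekeeping genes (15, −0.03, 0). With VT107 replicate 1 the medians of 4 of these lists had the other sign: the BCL2 family (0.36), JAK-STAT3 genes (−0.16), p53 targets (0.06) and receptor tyrosine kinases (0.02). The same held outside them for RAS genes (0.12 without it and −0.13 with it) and TEAD factors and cofactors (0.23 without it and −0.03 with it).

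**Figure D5:**
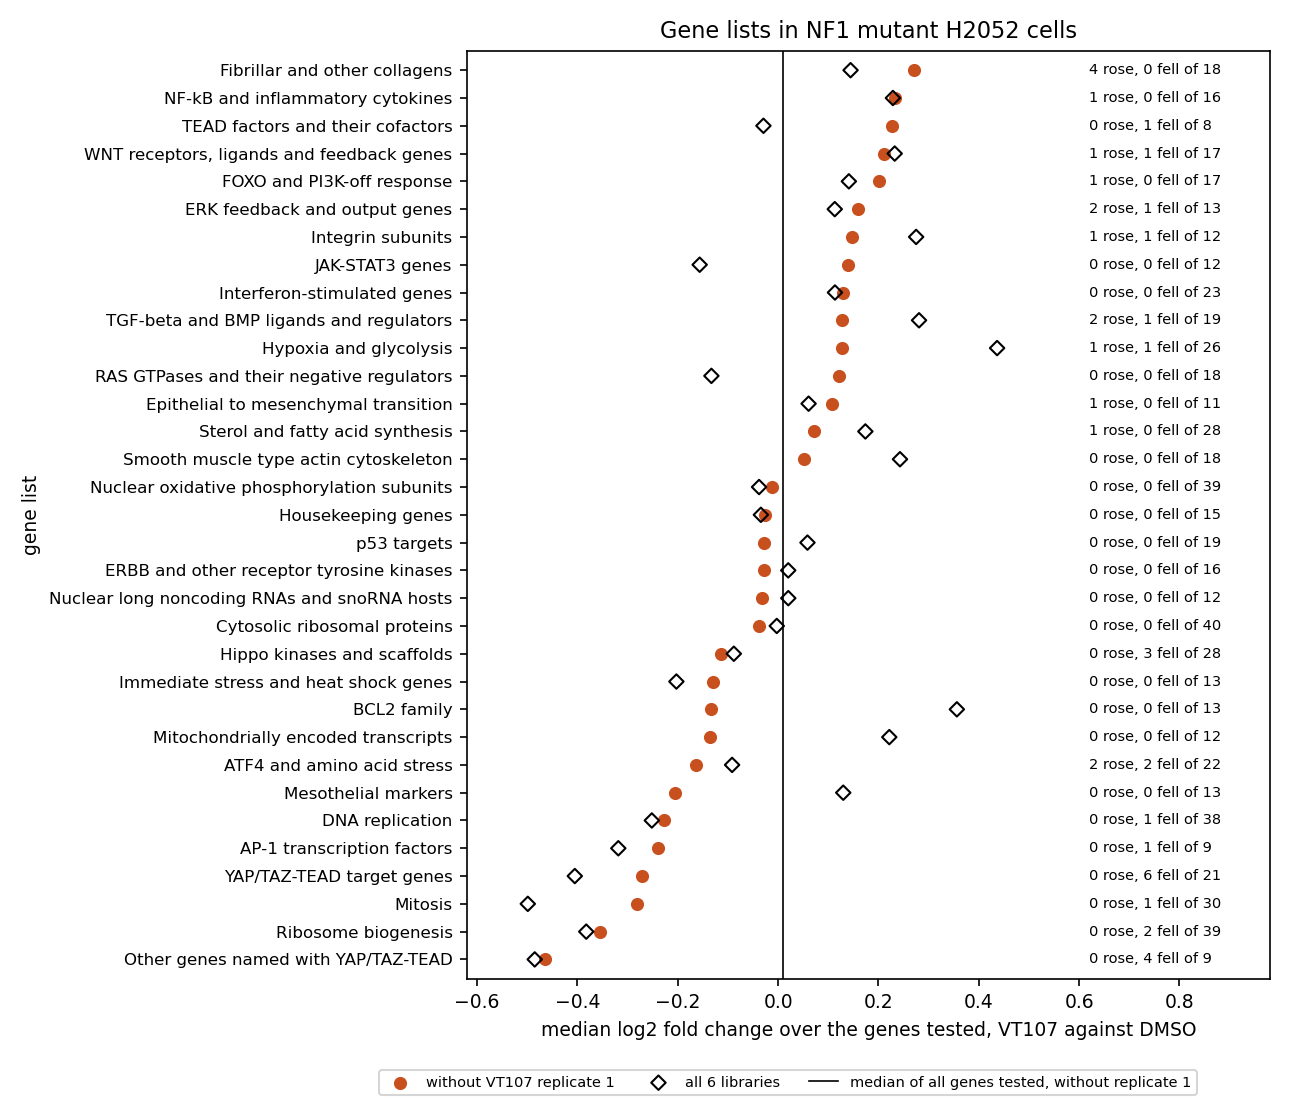
Median log2 fold change of the tested genes of each list, VT107 against DMSO, without VT107 replicate 1 (orange) and with all 6 libraries (open diamonds), with the counts of genes that rose and fell without VT107 replicate 1 at the right. The vertical line marks the median of all genes (0.01); the YAP/TAZ-TEAD, ribosome biogenesis, mitosis and DNA replication lists lie left of it in both, and the BCL2 family, mitochondrial transcripts, mesothelial markers, RAS genes, JAK-STAT3 genes, TEAD factors, p53 targets, receptor tyrosine kinases and nuclear long noncoding RNAs change side.

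Whether the response differed from that of parental cells was tested directly, as the response in NF1 mutant minus the response in parental H2052. By edgeR, 0 of 12167 genes passed without VT107 replicate 1 (0.0%) and 0 of 11432 with it (0.0%). At an unadjusted p under 0.05 there were 124 (1.02%) and 78 (0.682%). In parental cells alone edgeR called 0 of 12891 genes (0.0%), with 474 at an unadjusted p under 0.05 (3.68%). This count does not show a weaker response in parental than in NF1 mutant cells. The authors reported more genes altered by VT107 in parental cells. Parental libraries held 10950284 to 13418485 counts, more than any NF1 mutant library, so depth differed along with genotype. The number 3 parental libraries differed from numbers 1 and 2 in some genes, in DMSO as well as in VT107. The parental fit took no account of replicate numbers, so such shifts enter its estimate of spread. KRT34 had 353, 316 and 16.8 CPM in parental VT107 libraries and 574, 562 and 88.8 CPM in parental DMSO libraries. IL33 had 23.9, 22.4 and 212 CPM in parental VT107 libraries and 4.22, 4.77 and 63.8 CPM in parental DMSO libraries, which leaves its difference of 1.71 with an SE of 1.77 (unadjusted p = 0.354 by edgeR, 11 libraries).

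The 2 responses share no libraries. Over 12167 genes tested in both, the log2 fold changes of NF1 mutant cells without VT107 replicate 1 and of parental cells had r = 0.53 and rho = 0.468, and 66.3% had the same sign. Of the genes called in NF1 mutant cells, 109 of 109 that rose and 85 of 86 that fell had the same sign in parental cells, the exception being MAGOH, an exon junction protein (−0.71 in NF1 mutant cells, 0.01 in parental cells). The median over the genes that rose was 0.95 in NF1 mutant cells and 0.66 in parental cells, and over those that fell −0.90 in NF1 mutant and −0.68 in parental cells. These genes were chosen in NF1 mutant cells, so their larger medians there carry that choice.

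The differences of the TEAD outputs NPPB, IGFBP3, ANKRD1, CTGF and CYR61 did not pass. CTGF had a log2 fold change of −1.69 in NF1 mutant and −1.41 in parental cells (difference −0.27 ± 0.28). IGFBP3 had −2.63 in NF1 mutant and −2.52 in parental cells (−0.12 ± 0.34), and CYR61 had −1.24 in NF1 mutant and −1.11 in parental cells (−0.12 ± 0.35). ANKRD1 had −2.16 in NF1 mutant and −2.21 in parental cells (0.04 ± 0.75), and NPPB −3.77 in NF1 mutant and −2.74 in parental cells (−1.04 ± 0.77, unadjusted p = 0.202 by edgeR). With these errors differences of similar size could not be detected. Over the 21 target genes the median was −0.27 in NF1 mutant cells without VT107 replicate 1 and −0.68 in parental cells. With all 6 libraries the NF1 mutant median was −0.41. Of the 21 differences 16 were positive, beside 50.9% of all genes, and their median was 0.11. In the second list of genes named with this pathway, 4 of 9 differences were positive (median −0.06).

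HIF1A had the smallest p of all differences. Its log2 fold change was 1.35 in NF1 mutant cells and 0.35 in parental cells, where HIF1A was at 82.9, 60.0 and 74.2 CPM in VT107 and 59.4, 49.9 and 66.6 CPM in DMSO. The difference was 1.00 ± 0.22 without VT107 replicate 1 (unadjusted p = 0.000903, adjusted p = 1.00 by edgeR) and 1.17 ± 0.30 with it. The NF1 mutant VT107 libraries lay above, and the NF1 mutant DMSO libraries below, all parental libraries of either treatment. The sterol reductase DHCR7 had a difference of the other sign, with 43.1, 79.9 and 77.9 CPM in VT107 and 115, 113 and 101 CPM in DMSO in NF1 mutant cells, and 56.6, 45.3 and 62.9 CPM in VT107 and 39.4, 49.6 and 45.7 CPM in DMSO in parental cells (difference −0.83 ± 0.21, unadjusted p = 0.00233, adjusted p = 1.00 by edgeR). The difference of complement C3 (2.29, unadjusted p = 0.00128, adjusted p = 1.00) rests on 5, 16 and 9 counts in VT107 and 3, 3 and 2 in DMSO in NF1 mutant cells, and C3 overlaps GPR108.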

How the data were processed

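PolyA RNA of NF1 mutant and parental H2052 cells (Trizol) was read on a NextSeq500 as single-end reads of 75 bp. The authors deposited raw counts per gene without normalization; bcl2fastq 2.20.0.422 and genome build hg19 are named in their processing notes, and the sources used here name no aligner, counter, annotation, strand setting or kit. Of 588 pairs of overlapping genes on opposite strands with at least 500 counts in each, 101 had counts within 5% of each other, so reads of such partners cannot be told apart, and overlapping partners with a sizeable share of a gene's counts are named beside genes of the naming rule. The table's 31017 rows include 63 that repeat an ID and were summed (30954 IDs). A further 16 columns of siRNA-treated samples were not matched to a described sample and not used.

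Tests kept genes that reached 0.5 CPM in each library entering them and used edgeR 4.0.16 in R 4.3.3 (TMM, quasi-likelihood test, Benjamini-Hochberg over all genes tested, threshold 0.05); "with all 6 libraries" and "without VT107 replicate 1" are separate fits, as are the differences from parental cells with 12 and 11 libraries. Each SE was derived from the F statistic, as the size of the log2 fold change over the root of F. P-values measure the spread between these samples. An exact permutation test on 3 against 3 libraries cannot reach the threshold and was not used. Alternatives were DESeq2 1.42.0, limma 3.58.1 (voom, with and without quality weights), the likelihood ratio test, RLE factors, other filters, the replicate block, all 4 H2052 groups together and each library left out. The test was checked on simulated data with the same spread for every gene and no library standing apart. That check does not cover VT107 replicate 1 or the shifts between parental replicates. The groups, taken from the labels, the 39 gene lists and the naming rule were chosen with earlier results of these data known. The rule names, per comparison, the 10 largest rises and falls among called genes whose log2 CPM averaged 3 or more and whose groups did not overlap (or the 5 smallest p where fewer than 5 qualify), up to 4 members per list, the 5 smallest p of each difference, and NF1. Marker genes, RPS7, PFN1, NF2, LATS1, MAGOH, EVI2A and the 10 genes whose sign changed were named after their values were seen. Of the list entries, 8 were not in the table. GC content came from GENCODE v29 transcripts and promoters from RefSeq GRCh38.p14, matched by symbol.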

Additional observations from a re-analysis of the deposited data

How the results depend on the processing

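The 6-library count of called genes, 0 by edgeR, was 20 by DESeq2, 147 with quality weights, 26 by the likelihood ratio test and 3 with all 4 H2052 groups in 1 fit, and 0 to 198 with 1 library left out, the 198 without VT107 replicate 1. The count of 198 without VT107 replicate 1 was 434 by the likelihood ratio test, 536 with no filter on low values and 3 (CTGF, HIF1A and IGFBP3) with all 4 groups in 1 fit, where the parental libraries enter the estimate of spread. With a further library left out it was 79 to 416 (416 without VT107 replicate 2, 126 without VT107 replicate 3, 83 without DMSO replicate 1, 79 without DMSO replicate 2 and 157 without DMSO replicate 3); a lone VT107 library is then assumed to vary like DMSO. DESeq2 gave 219, voom 180, quality weights 148, RLE factors 198 and a filter of 10 counts 185. The differences from parental cells gave 0 in every alternative run, 0 to 0 with a library left out. MCM7, MRTO4 and WNT5B, positive with all 6 libraries, were at −0.60, −0.68 and −0.58 without VT107 replicate 1. With VT107 replicate 1 kept and VT107 replicate 2 left out they were at 0.46, 0.30 and 0.54. In every alternative without VT107 replicate 1 their estimates stayed negative.

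In NF1 mutant cells, deviations of same-numbered VT107 and DMSO libraries from their group means correlated at −0.170, −0.221 and 0.165. The VT107 mean includes replicate 1, whose shift then enters the deviations of VT107 replicates 2 and 3. These values therefore cannot decide whether the replicate numbers pair the samples. The same correlations were not computed for parental cells, where some genes shifted with the replicate number in both treatments. A parental fit with the replicate number as a block is not reported here. With the replicate number as a block the counts were 0 (6 libraries), 241 (without VT107 replicate 1) and 0 for both differences.

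All 57 called genes among the 190 named kept their direction in every alternative without VT107 replicate 1, 45 kept their call under each tool, normalization and filter, and 29 did so in every alternative but the fit of all 4 groups. HIF1A ranged between 1.29 and 1.38, CTGF between −1.85 and −1.52 and IL33 between 3.35 and 3.80. Depth limits genes of low level, since 1 CPM stands for 3.29 to 5.49 counts in these libraries.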

Other observations

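The genes below were chosen after their values were seen and are given as values. They were called without VT107 replicate 1 by edgeR with Benjamini-Hochberg adjustment, and no group of genes is meant by them. DUSP1, a phosphatase of stress kinases, had 6.02, 26.2 and 21.3 CPM in VT107 and 44.8, 42.0 and 43.9 CPM in DMSO (log2 fold change −0.88 ± 0.17, adjusted p = 0.0154, and −1.26 with all 6 libraries). DUSP14 had 53.8, 97.8 and 109.6 CPM in VT107 and 172, 164 and 178 CPM in DMSO (−0.74 ± 0.12, adjusted p = 0.00577, and −0.92 with all 6 libraries). Both fell while the ERK phosphatase DUSP6 rose, and in both all VT107 libraries lay below all DMSO libraries. The chemokine receptor CXCR4 had 12.5, 12.7 and 14.3 CPM in VT107 and 24.6, 26.7 and 25.1 CPM in DMSO (−0.94 ± 0.19, adjusted p = 0.0245, and −0.86 with all 6 libraries), with VT107 replicate 1 next to the other VT107 libraries. The lysosomal protease CTSC had 28.04, 74.5 and 80.4 CPM in VT107 and 158.5, 144 and 163.5 CPM in DMSO (−1.02 ± 0.13, adjusted p = 0.000558, and −1.31 with all 6 libraries).

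A further 4 genes that rose, chosen in the same way, encode matrix proteins or a protease of the matrix. LAMB3, a chain of the basement membrane laminin, had 12.5, 73.5 and 71.5 CPM in VT107 and 29.3, 28.04 and 26.6 CPM in DMSO (log2 fold change 1.35 ± 0.14, adjusted p = 0.000105 by edgeR, and 0.92 with all 6 libraries). LAMA4, another laminin chain, had 25.7, 34.8 and 41.1 CPM in VT107 and 19.5, 17.7 and 18.6 CPM in DMSO (1.00 ± 0.17, adjusted p = 0.00614, and 0.93 with all 6 libraries). THBS2 had 239, 165 and 230.4 CPM in VT107 and 97.3, 112 and 112 CPM in DMSO (0.86 ± 0.15, adjusted p = 0.00614, and 1.09 with all 6 libraries), the opposite direction to its relative THBS1. The membrane collagenase MMP14 had 239, 95.5 and 136 CPM in VT107 and 48.8, 59.8 and 71.7 CPM in DMSO (0.93 ± 0.17, adjusted p = 0.0148, and 1.54 with all 6 libraries). For LAMA4, THBS2 and MMP14 all VT107 libraries lay above all DMSO libraries, and for LAMB3 all but VT107 replicate 1 did.

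HIF1A and SNAPC1 lie on the same strand of chromosome 14, HIF1A ending at 62214976 and SNAPC1 starting at 62229075 (hg19), and moved in opposite directions (1.35 and −2.42 on the log2 scale without VT107 replicate 1).

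EVI2A, within the NF1 span on the opposite strand, had 0.463, 12.3 and 11.3 CPM in VT107 and 2.73, 2.43 and 6.02 CPM in DMSO (log2 fold change 1.69 ± 0.35, adjusted p = 0.0235 by edgeR, not tested with all 6 libraries), and NF1 itself did not pass the threshold.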
